A study of Mus musculus with 20 samples.

Results

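The sites described here are 76 CpGs at which the methylation of each of 20 libraries fell at one of 3 levels: low (0 to 10%), middle (35 to 65%) or high (85 to 100%). A CpG was taken where no library lay between these levels, where at least 2 libraries were low and at least 2 were high, and where the site was listed at both ages. Chromosome 17 and the stretch chr9:123923001-123934000 were left out. The 76 CpGs came from 1055540 CpGs of 18 autosomes that the rule covers, and from 1132579 CpGs listed at both ages on chromosomes 1 to 19, X and Y. The sites were chosen by their measured levels in all 20 libraries, so those levels are a description and carry no test. Which libraries belong to which genotype or age played no part in the choice.

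Methylation was measured by reduced representation bisulfite sequencing (RRBS), which reads a CpG-rich fraction of the genome, in DNA of brain homogenate after a step that enriches microglia, the brain's own immune cells. Mice labelled HEM overexpressed human wild-type α-synuclein at full length, from an X-linked transgene with the murine Thy-1 promoter, and wild-type (WT) mice served as controls. At 13 months there were 8 HEM and 4 WT libraries, and at 3 months 4 HEM and 4 WT libraries. The design text counts 3 WT mice at 3 months where 4 libraries carry that label, and all 4 were used. All groups share the B6D2F1/J background, which descends from a cross of C57BL/6J with DBA/2J, and 1 HEM library at 13 months carries no strain label. The Thy-1 promoter is used to drive transgenes in neurons, so microglia are not the cells it is chosen for. The labels state neither sex nor pooling. The spread between libraries, on which every p-value here rests, may be partly technical. Each age was deposited as its own set of CpGs, so age and set cannot be told apart.

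In mammalian DNA most CpGs outside CpG islands are methylated on both chromosomes, and neighbouring CpGs tend to be methylated alike. Bisulfite turns unmethylated cytosine into a base read as thymine. A sequence variant that puts thymine in place of that cytosine and a true absence of methylation therefore give the same reading. In mice whose 2 parental strains still segregate, an autosomal locus can be homozygous for either allele or heterozygous. At imprinted genes, methylation depends instead on the parent that gave the allele. No reads, variant calls or genotypes were used here, and in bulk DNA a middle level from a mixture of cells and one from a mixture of alleles cannot be told apart.

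The library means over all CpGs ran from 29.2 to 31.9%. The enrichment for microglia was checked with the regions of marker genes that held listed CpGs, 11 for microglia, 8 for neurons and 4 to 6 for each other cell type. Library means over marker regions were 23.2 to 32.1% for microglia, 27.3 to 32.7% for neurons, 31.0 to 35.1% for astrocytes, 24.8 to 29.3% for the oligodendrocyte lineage and 30.2 to 37.2% for vessels. The microglial range overlapped each of the others, and methylation alone does not show which cells the homogenate held. Read depth is unknown, because the files hold percentages only.

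Of the 1520 values, 336 (22.1%) were low, 718 (47.2%) middle and 466 (30.7%) high. The middle values had a median of 48.3%, with quartiles of 43.5 and 53.2%. The high values had a median of 93.4%, with quartiles of 90.4 and 96.0%. The low values had a median of 0, and 54.2% of them were exactly 0, while 5.15% of the high values were exactly 100%. All 76 CpGs had libraries at every level: a site had 3 to 16 middle libraries (median 10), 2 to 10 low ones (median 4) and 2 to 14 high ones (median 6). The site with most middle libraries lay in Tenm4, which encodes a teneurin, a cell-surface protein of developing neural circuits. At chr7:96835821 in that gene, 2 libraries were low, 16 middle and 2 high. Few low libraries and many high ones were found at chr3:129708029 in Egf, the gene of epidermal growth factor, with 3 low, 3 middle and 14 high. The reverse was seen at chr14:74832904 in Lrch1, with 10 low, 8 middle and 2 high.

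**Figure D1:**
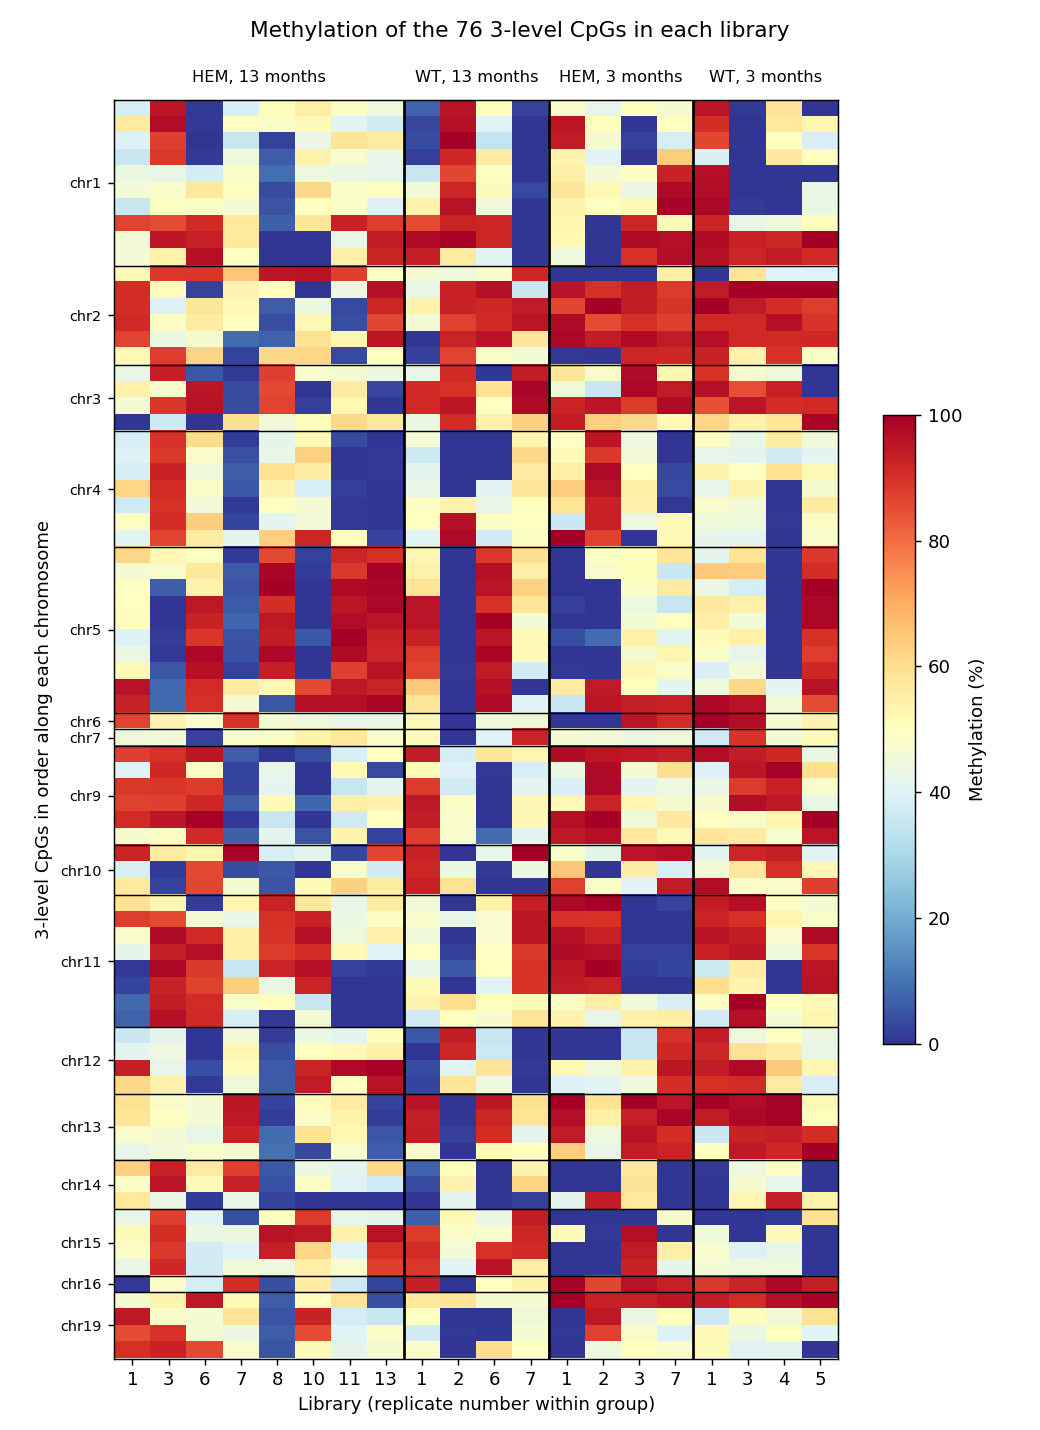
Methylation in percent of the 76 CpGs (rows, in order along each chromosome) in the 20 libraries (columns, by group and replicate number). Vertical lines part the groups and horizontal lines the chromosomes; runs of rows on chromosomes 4, 5 and 13 repeat one sequence of colours across the libraries.

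Other CpGs lay just past the limits of the rule. Just inside them were chr10:93557282, with 65% in HEM replicate 1 at 3 months, chr1:91108692, with 35% in WT replicate 6 at 13 months, and chr2:28257280, with 64.9% in HEM replicate 7 at 13 months. Just outside were chr6:97490477, with 84.9% in WT replicate 1 at 13 months, chr9:74559955, with 34.9% in WT replicate 3 at 3 months, and chr14:18494634, with 34.9% in HEM replicate 10 at 13 months. In all, 241 other CpGs met the rule when each limit was moved by 5 points.

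The sites were spread over 16 of the 18 autosomes. Chromosomes 1 and 5 held 10 each, chromosome 11 held 8, chromosome 4 held 7, and chromosomes 2 and 9 held 6 each. Chromosomes 3, 12, 13, 15 and 19 held 4 each, chromosomes 10 and 14 held 3 each, and chromosomes 6, 7 and 16 held 1 each. None lay on chromosomes 8 and 18, although 66398 and 33391 CpGs were listed there, and none on X or Y. The density was 0.72 sites per 10000 listed CpGs, against 2.27 on chromosome 17, where 12 CpGs met the same limits. With limits 5 points wider, chromosome 8 held 11 sites and chromosome 18 held 6.

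Of the 76 sites, 49 (64.5%) lay in a coding gene of the annotation, 6 in noncoding genes only and 21 in no gene. For comparison, 71.5% of the other CpGs lay in a coding gene, as did 59.6% of the 137834 CpGs with a mean of 25 to 75%. Sites outside coding genes were 1349 to 471578 bp from the nearest one, with a median of 22590 bp. No site fell in a window of the RefSeq promoter table, which covers the bases around a gene start, and none lay within 1 kb of a gene on a list of 50 imprinted genes (49 in the annotation) or of the 36 cell type markers. No gene held more than 2 sites. Ttc28, a tetratricopeptide-repeat protein, and Arsk, a lysosomal sulfatase, held 2 each. No site lay in an olfactory or vomeronasal receptor gene or in a gene of the Zfp series, while 8 lay in predicted genes named Gm and 4 in Rik genes. No share over all CpGs stands beside the counts for promoter windows, gene lists and gene families, so they carry no test.

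Several of these genes act in neurons or in lysosomes, and they are named for those roles and not for their values. Unc80, a subunit of a neuronal sodium leak channel, had 5 low, 12 middle and 3 high libraries at chr1:66659678. Pcsk2, a protease that matures peptide hormones, had 5, 9 and 6 at chr2:143661095. Cacna1i, a low-voltage calcium channel, and Ephb1, an ephrin receptor of axon guidance, each had 3, 10 and 7, at chr15:80389277 and chr9:102042495. Of the lysosomal enzymes, Glb1, a β-galactosidase, had 4 low, 11 middle and 5 high libraries at chr9:114454779, and Sgsh, a sulfamidase, had 4, 13 and 3 at chr11:119351062. Both sites in Arsk had 3 low, 8 middle and 9 high libraries.

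Libraries differed in how many of the 76 sites they had at each level. Among HEM libraries at 13 months, the number of low sites had a lowest value of 6 (replicate 1), a median of 18.5 and a highest of 32 (replicate 8). The WT libraries 1, 2, 6 and 7 at 13 months had 14, 30, 16 and 17. The HEM libraries 1, 2, 3 and 7 at 3 months had 21, 21, 12 and 15, and the WT libraries 1, 3, 4 and 5 had 5, 9, 18 and 10. All 4 groups overlapped. High sites ranged from 8 in HEM replicate 7 at 13 months to 37 in HEM replicate 3 at 13 months. The mean level over the 76 sites was 37.6 to 63.1% in HEM libraries at 13 months, 42.3 to 54.2% in WT at 13 months, 50.9 to 55.7% in HEM at 3 months and 50.6 to 64.3% in WT at 3 months. The widest spread was therefore within one group.

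**Figure D2:**
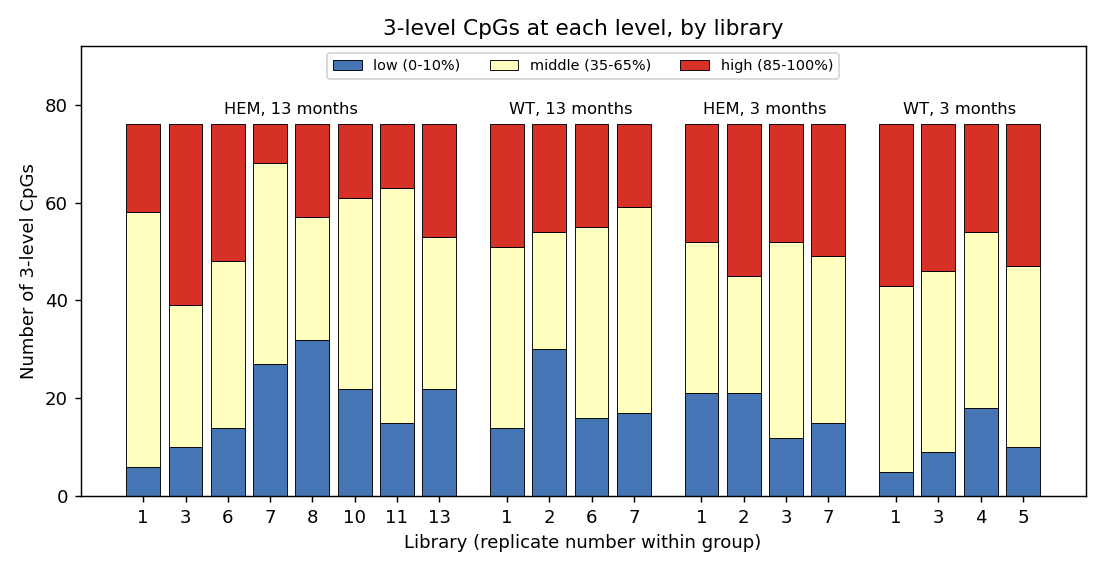
Number of the 76 CpGs at the low, middle and high level (stacked bars) in each library, by group and replicate number. In HEM libraries at 13 months the low count runs from 6 to 32, which spans the counts of nearly all other libraries.

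Any pair of libraries had the same level at 10 to 54 of the 76 sites, with a median of 29 over the 190 pairs. The fewest, 10, were shared by HEM replicate 3 at 13 months and HEM replicate 7 at 3 months. The most, 54, were shared by HEM replicate 7 and WT replicate 1 at 3 months, which differ in genotype. Pairs of 3-month libraries shared 24 to 54 (median 34), pairs of 13-month libraries 11 to 52 (median 28), pairs across ages 10 to 44 (median 28), and pairs of one group a median of 31.

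The share of each level was also counted by age. At 3 months 18.3% of the values were low, 45.6% middle and 36.2% high, and at 13 months 24.7% were low, 48.4% middle and 27.0% high. All 3 levels occurred among the 12 libraries of 13 months at 69 sites, and among the 8 libraries of 3 months at 43. At 7 sites all 8 libraries of 3 months were high, and at none were all 8 low. These 7 were chr2:36121865 in Rbm18, chr2:102099755 in Ldlrad3, chr2:104168099 in D430041D05Rik, chr2:118933145, chr3:129708029 in Egf, chr16:43973665 in Zdhhc23 and chr19:15433545. On chromosome 17, by contrast, all 12 sites were low in all 8 libraries of 3 months, 96 of 96 values.

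The low level was not at the same height in every library. Pooled over the libraries of a group, exact zeros made up 25.7% of the low values in HEM at 13 months and 70.1% in WT at 13 months. They made up 76.8% in HEM at 3 months and 88.1% in WT at 3 months. By library the share ran from 0 to 63.6% in HEM and 21.4 to 83.3% in WT at 13 months. At 3 months it ran from 60 to 90.5% in HEM and 77.8 to 100% in WT. Read depth is unknown and was not accounted for, and a group difference was not tested. The median of a library's low values was 4.17% in HEM replicate 7, 4.86% in HEM replicate 8 and 3.28% in WT replicate 1 at 13 months. It was 1.78, 1.53, 0.976, 0.92 and 0.459% in HEM replicates 3, 1, 6, 13 and 11 at 13 months, and 0 in the remaining 12 libraries. Every 3-month library was among those at 0. At 504535 CpGs with a mean under 1%, the libraries averaged 0.177 to 0.268%, with 0.252% in HEM replicate 7, 0.216% in HEM replicate 8 and 0.25% in WT replicate 1 at 13 months. The 3 libraries with the highest low level were within the range of the other 13-month libraries there, 0.192 to 0.268%. They lay above every 3-month library, which averaged 0.177 to 0.215%. These CpGs were chosen by their mean in the same libraries, and a difference in background between libraries was not tested.

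**Figure D3:**
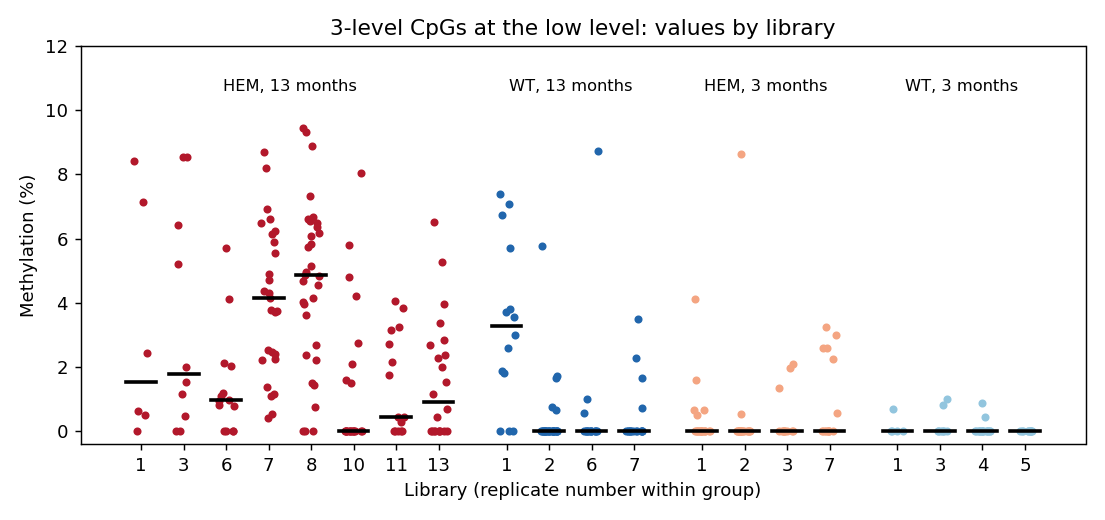
Methylation in percent of every CpG at the low level (points) in each library, by group and replicate number, with the library's median as a bar. Medians are 4.17, 4.86 and 3.28% in HEM replicates 7 and 8 and WT replicate 1 at 13 months, and 0 in all 8 libraries of 3 months.

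Sites close together on a chromosome had the same sequence of levels across the 20 libraries. Each pair of sites was scored by the number of libraries at the same level, or at mirrored levels (low against high) where that number was larger. The 6 pairs within 1 Mb matched in all 20 libraries. The 36 pairs 1 to 10 Mb apart matched in a median of 18 (8 to 20), and 24 of them (66.7%) in at least 18. The 163 pairs further apart on one chromosome matched in a median of 11 (4 to 20), and 15 (9.20%) in at least 18. The 2645 pairs on different chromosomes matched in a median of 8 (2 to 18), and 1 in at least 18. Matching in 18 or more reached as far as 44615974 bp, and of the 46 such pairs 1 was mirrored.

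**Figure D4:**
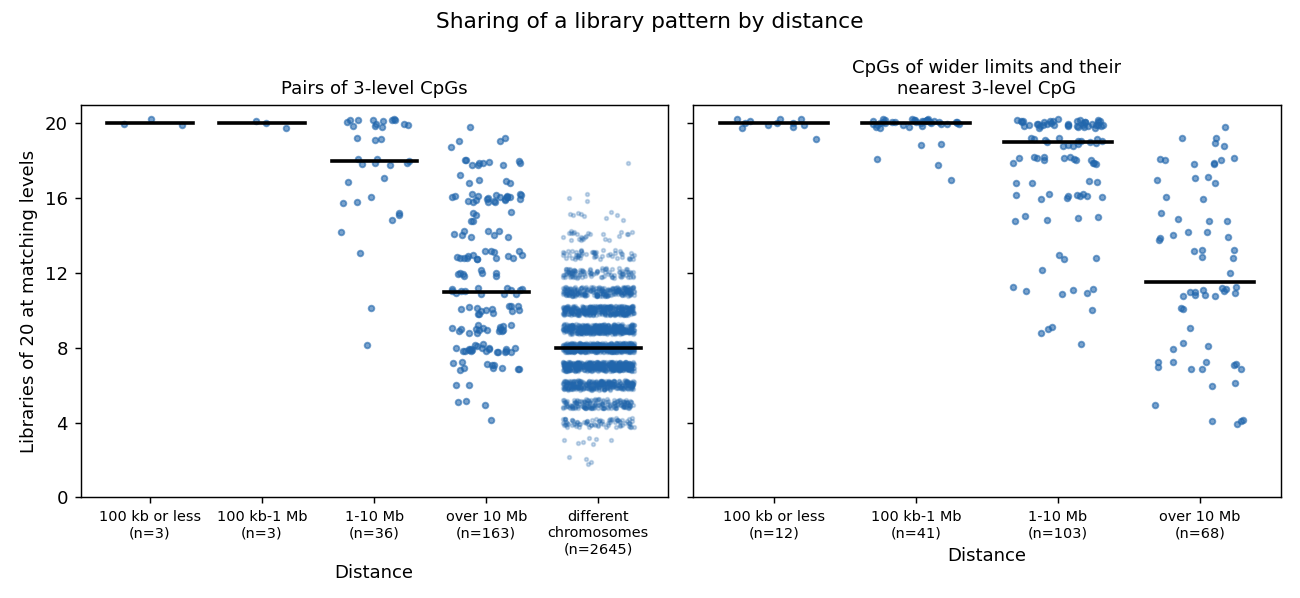
Libraries of 20 at matching levels for pairs of 3-level CpGs (left) and for CpGs that met only the wider limits, each against its nearest 3-level CpG (right), by distance; points are pairs, jittered slightly, and bars are medians. The left medians are 20 up to 1 Mb, 18 at 1 to 10 Mb, 11 beyond 10 Mb and 8 between chromosomes.

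Where neighbouring sites on a chromosome did differ, they mostly differed by one step. Among the 60 pairs of consecutive sites, the 6 with gaps up to 1 Mb had no differing library in 120 comparisons. The 23 pairs with gaps of 1 to 10 Mb matched in 86.3% of 460 comparisons, with 62 changes of one level and 1 from low to high. The 13 pairs 10 to 20 Mb apart matched in 82.3%, with 46 changes of one level and none from low to high. The 18 pairs over 20 Mb apart matched in 57.8%, with 141 changes of one level and 11 from low to high. These shares were scored in the better of the same and the mirrored orientation, and 1 pair, chr2:28257280 with chr2:36121865, was scored as mirrored at 8 matching libraries. Between chromosomes 50.1% of comparisons were one level apart and 8.38% went from low to high.

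The same held for sites that met only the wider limits (0 to 15, 30 to 70 and 80 to 100%). Of the 241 such CpGs, 224 lay on chromosomes with one of the 76 sites. Of the 53 within 1 Mb of the nearest of these, 52 matched it in at least 18 libraries. The 103 at 1 to 10 Mb matched in a median of 19 libraries, and 69 of them in at least 18. The 68 further away matched in a median of 11.5, and 12 of them in at least 18. Since sites near each other share a pattern, the 76 sites are not 76 independent observations.

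Consecutive sites that matched in at least 18 libraries were joined into blocks. There were 48 blocks, of which 33 were single sites and 15 held 2 or more sites, 43 in all. These 15 spanned 0.0666 to 63.1 Mb, with a median of 8.73 Mb. Joining is stepwise, so the first and last site of a long block can match in fewer than 18 libraries. Levels between the sites of a block are not known from these sites. With at most 5 Mb between consecutive sites there were 60 blocks, 12 of them with 2 or more sites.

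The block with most sites ran from chr5:74074234 to chr5:114367082, over 40.3 Mb, with 8 sites. The level was the same at all 8 sites in 16 of 20 libraries. Of this span 32.1 Mb was a single gap, from chr5:74705814 to chr5:106821040. Its sites in coding genes lay in Ttc28, Myo18b, a myosin of striated muscle, Acacb, the acetyl-CoA carboxylase that restrains fatty acid oxidation, and Kctd10, an adaptor of a ubiquitin ligase. Its clearest site was chr5:111150983 in Ttc28, where HEM libraries at 13 months ran from 0 to 97.1% (median 71.7%). The WT libraries 1, 2, 6 and 7 at 13 months were at 95.5, 0, 100 and 46.05%. At 3 months HEM libraries 1, 2, 3 and 7 were at 0, 0, 45.9 and 50%, and WT libraries 1, 3, 4 and 5 at 55.2, 46.0, 0 and 98.3%. Low libraries occurred in all 4 groups and high ones in 3 of them.

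The longest block ran from chr4:45802325 to chr4:108864195, over 63.1 Mb, with 6 sites and 16 libraries constant at them. Of this span 34.2 Mb was a single gap, from chr4:74698943 to the last site. Its sites in coding genes lay in Aldh1b1, a mitochondrial aldehyde dehydrogenase, Anks6, a protein of primary cilia, and Smc2, a condensin subunit. At chr4:45802325 in Aldh1b1, HEM libraries at 13 months ran from 0 to 89.3% (median 40.3%). The WT libraries at 13 months were at 46.3, 0, 0 and 53.0%, and those at 3 months at 49.3, 42.9, 56.2 and 45.2%. The HEM libraries at 3 months were at 49.7, 95.1, 44.3 and 0%. All 4 WT libraries at 3 months were at the middle level, and each other group held low libraries.

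The next block ran from chr13:76084971 to chr13:99042808 (23.0 Mb, 3 sites, 18 libraries constant). It began with the only 2 sites that lay within 100 bp of each other, 20 bp apart in Arsk, which had the same level in 20 of 20 libraries. At the second of them, chr13:76084991, HEM libraries at 13 months ran from 1.44 to 94.5% (median 49.0%). The WT libraries at 13 months were at 93.4, 0, 91.9 and 58.5%. At 3 months the HEM libraries were at 96.7, 54.8, 93.3 and 98.4%, and the WT libraries at 94.2, 98.1, 99.2 and 50%. No library of 3 months was low at this site. At the first, chr13:76084971, the WT libraries of 13 months were at 96.0, 0, 95.2 and 59.3% and those of 3 months at 100, 97.1, 99.6 and 52.0%.

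Chromosome 1 held 2 blocks of 3 sites with different patterns. The first ran from chr1:80111684 to chr1:98889701 (18.8 Mb, 17 libraries constant), with a site in Lrrfip1. At chr1:80111684, which lies in no gene, HEM libraries at 13 months ran from 0.99 to 97.1% (median 49.0%) and WT libraries were at 2.99, 96.4, 40.6 and 0%. At 3 months HEM libraries were at 95.05, 50.4, 0 and 50.4%, and WT libraries at 90.3, 0, 57.1 and 52.9%. All 3 levels occurred in every group. The second ran from chr1:150407447 to chr1:165109902 (14.7 Mb, 19 constant), with a site in Tpr, a protein of the nuclear pore basket. At chr1:162616555, also in no gene, HEM libraries at 13 months ran from 3.64 to 61.3% (median 49.1%) and WT libraries were at 45.8, 92.1, 51.1 and 3.51%. Of the 3-month libraries, HEM ones were at 57.6, 51.8, 43.9 and 97.6%, and WT libraries at 96.9, 0, 0 and 42.6%. WT replicate 3 at 3 months was low at all sites of both blocks. WT replicate 1 at 13 months was low at those of the first and at the middle level at those of the second.

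Chromosome 12 also held 2 blocks, of 2 sites each. The block from chr12:17023208 to chr12:28658937 (11.6 Mb) had the same level in all 20 libraries, with a site in Rnaseh1, which removes RNA from RNA-DNA hybrids. At chr12:28658937 HEM libraries at 13 months ran from 0 to 55.0% (median 47.2%) and WT libraries were at 0, 92.1, 36.7 and 0%. HEM libraries at 3 months were at 0, 0, 35.6 and 91.5%, and WT libraries at 91.8, 59.2, 55.6 and 43.2%. The block from chr12:76178608 to chr12:88424140 (12.2 Mb, 18 constant) had a site in Adck1, a mitochondrial protein related to kinases. At chr12:88424140 HEM libraries at 13 months ran from 0.962 to 95.9% (median 52.1%) and WT libraries were at 2.61, 58.1, 44.7 and 0%. Of the 3-month libraries, HEM ones were at 39.5, 40.8, 45.05 and 90.6%, and WT libraries at 89.9, 90.8, 56.3 and 38.3%. WT replicates 1 and 7 at 13 months were low in both.

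On chromosome 19, chr19:38135305 in Pde6c, a phosphodiesterase of cone photoreceptors, and chr19:46868706 in Cnnm2, which handles magnesium transport, formed a block of 8.73 Mb with 19 libraries constant. At the Pde6c site HEM libraries at 13 months ran from 4.69 to 94.7% (median 47.2%), and WT libraries were at 49.4, 0, 0 and 45.1%. HEM libraries at 3 months were at 0, 94.7, 43.5 and 50%, and WT libraries at 36.7, 50.7, 45.5 and 58.7%. All 4 WT libraries of 3 months were at the middle level.

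Most CpGs beside these sites did not follow them. Within 100 bp of 71 of the sites, 236 other CpGs were listed, and 5 sites had none. Over the 20 libraries the neighbours' range had a median of 16.6 points (quartiles 12.4 and 22.4), whereas the sites themselves had ranges of 88.6 to 100 points (median 96.9). The ranges of the sites follow from the rule. Of the neighbours, 225 had a mean above 75%, 11 one of 25 to 75% and none one below 25%, and 172 were above 75% in all 20 libraries. Their median mean was 92.7%. Most neighbours were thus highly methylated also in libraries whose site was at 0.

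A neighbour differed from its site by a median of 41.2 points over the libraries (quartiles 28.3 and 46.7). Beside CpGs with a mean of 25 to 75%, 447756 neighbours differed by a median of 11.8 points and had a median range of 36.8 points. These comparison CpGs were not chosen for a wide range, so the difference between the medians carries no test. The 39 neighbours of the 12 sites of chromosome 17 differed by 52.7 points and had a median range of 15.8. Sites of the 18 autosomes had a median of 3 neighbours, against 8 for other CpGs and 2 for CpGs of middle mean.

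With neighbours highly methylated in most libraries, the difference follows from how many libraries are high at the site, and it is given only to place the sites. Among sites with at least 2 neighbours, the smallest differences were 6.40 points at chr1:187630781 in Esrrg, an orphan nuclear receptor (6 neighbours, 12 high libraries), and 7.57 points at chr3:129708029 in Egf (4 neighbours, 14 high libraries). The next were 8.47 points at chr2:104168099 in D430041D05Rik (13 high libraries) and 8.60 points at chr9:54672833 in Gm39341 (11 high). The largest differences were 70.5 points at chr14:74832904 in Lrch1 (7 neighbours, 10 low libraries), and about 50 points at 3 further sites. These were chr14:16241971 in Oxsm, of mitochondrial fatty acid synthesis, with 51.95 points, chr14:16308546 in Ngly1, which strips sugars from misfolded glycoproteins, with 50.7 points, and chr12:28658937 in Rnaseh1 with 49.4 points. The Oxsm and Ngly1 sites formed a block 0.0666 Mb long and had the same level in all 20 libraries.

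At the Lrch1 site, HEM libraries at 13 months ran from 0 to 56.9% (median 1.77%), and WT libraries were at 0, 41.7, 0 and 1.67%. Of the 3-month libraries, HEM ones were at 41.7, 94.1, 57.4 and 0%, and WT libraries at 0, 53.0, 93.4 and 54.05%. Both high libraries were of 3 months. At the Esrrg site, HEM libraries at 13 months ran from 0 to 95.3% (median 51.3%), and WT libraries were at 97.7, 99.2, 91.8 and 0%. HEM libraries at 3 months were at 52.0, 0, 97.7 and 96.5%, and WT libraries at 97.5, 93.3, 91.9 and 100%. All WT libraries of 3 months were high there.

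**Figure D5:**
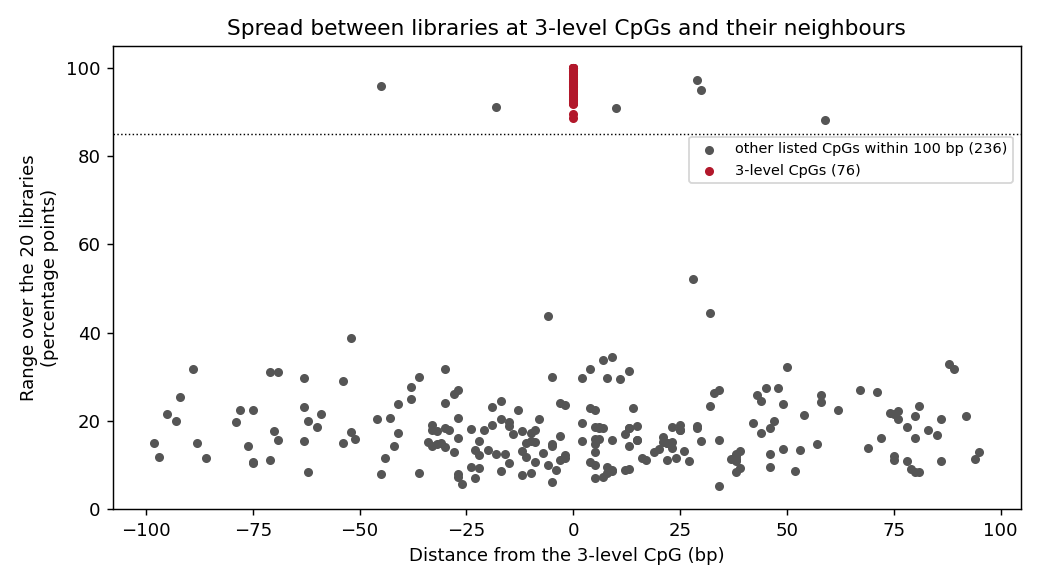
Range over the 20 libraries in percentage points (vertical axis) of the 76 CpGs at 0 bp and of the 236 other CpGs within 100 bp, by distance in bp; the dotted line marks 85 points. Of the neighbours, 229 lie below 50 points and 6 above the line.

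Of the 236 neighbours, 229 had a range under 50 points, 1 a range of 50 to 85 points and 6 (beside 5 sites) a range above 85 points, which 0.287% of the neighbours of CpGs of middle mean had. For matching, a neighbour's value was given its nearest level: low under 25%, high over 75% and middle otherwise. By these wider cuts 4 of the 6 had the level of their site in at least 18 libraries. Each of the 4 had missed the rule by the values of 1 to 5 libraries. The CpG 18 bp before chr1:150407447 in Tpr had the site's level in 20 of 20 libraries, differed from it by a median of 2.36 points and missed the rule by 1 library, at 33.8%. The CpG 30 bp after chr2:104168099 matched in 20 of 20 (3.18 points), and the CpG 29 bp after chr9:77381188, in the gene 5730403I07Rik, also in 20 (3.00 points). The CpG 10 bp after chr1:182102147 matched in 19 (2.66 points). The remaining 2, 59 bp after chr2:104168099 and 45 bp before chr10:19409645, matched in 14 and 16 libraries, with differences of 15.5 and 10.8 points. They had 13 and 11 libraries outside the limits of the rule.

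At none of the 76 sites was the position 1 bp away listed, at either age, which is where the other strand of the same CpG would stand. Such a partner was listed for 22.5% of the CpGs the rule covers and for 15.3% of those of middle mean. None of the 12 sites of chromosome 17 had one. Each site therefore rests on 1 strand, and the levels of the strands could not be compared.

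Genotype and age were compared at the sites with limma's moderated test over all CpGs with a mean of 5 to 95% and Benjamini-Hochberg adjustment. The rule used the same values without their group labels, and it required a listing at both ages, so these p-values describe how the chosen sites fell in a fit over all CpGs. Unlike the other CpGs of the fit, the sites were chosen for a wide spread between libraries. Shares of sites set beside shares over all CpGs therefore carry no test. Sites with an adjusted p under 0.05 and group means at least 10 points apart were called. Between HEM and WT at 13 months, limma called 0 of 76 sites, and 6 (7.9%) had an unadjusted p under 0.05. Over all CpGs, 0.000881% were called and 5.82% had such a p. The 6 became 10 without WT replicate 7 at 13 months, where 30965 of 454485 CpGs had such a p. At 3 months it called 0 of 74 sites, with 0 at an unadjusted p under 0.05, against 0 and 4.53% over all CpGs. That count depended on single libraries: it was 7 without WT replicate 1, 5 without WT replicate 4 and 5 without HEM replicate 7. It was 3 without HEM replicate 3, 2 without HEM replicate 1 or 2, and 1 without WT replicate 3 or 5. Over all CpGs such p-values ran from 20009 of 492432 to 24608 of 490718 in these fits. The other 2 sites did not pass the filter on the mean at 3 months. No site passed the threshold between genotypes at either age.

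The smallest p between genotypes at 13 months belonged to the Cnnm2 site, chr19:46868706. There HEM libraries ran from 6.36 to 89.6% (median 47.8%), and WT libraries 1, 2, 6 and 7 were at 37.4, 0.654, 0 and 46.2%. The HEM mean of 55.8 ± 28.9% (SD, n = 8) and the WT mean of 21.04 ± 24.2% (SD, n = 4) were 34.8 points apart, with a limma adjusted p of 0.817. The Pde6c site of the same block was next, at 28.7 points and a limma adjusted p of 0.84. The ranges of the genotypes overlapped at both.

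At 3 months the smallest p belonged to chr1:150407447 in Tpr, where HEM libraries were at 54.7, 46.3, 48.95 and 92.6% and WT libraries at 96.6, 0, 0 and 0%. HEM was higher by 36.5 points (60.7 ± 21.6% against 24.1 ± 48.3%, SD, n = 4 each; limma adjusted p = 0.985). The WT group held both the highest value and the 3 lowest. The Rnaseh1 site was next, with a HEM mean of 31.8 ± 43.2% and a WT mean of 62.4 ± 20.75% (limma adjusted p = 0.985).

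Between ages, limma called 0 of 76 sites in WT mice, with 17 (22.4%) at an unadjusted p under 0.05, of which 4 were higher and 13 lower at 13 months. In HEM mice it also called 0 of 76, with 20 (26.3%) at an unadjusted p under 0.05, 5 higher and 15 lower. Over all CpGs, 0.0183% were called in WT and 0.0305% in HEM, and 4.79 and 10.4% had an unadjusted p under 0.05. Those CpGs were not chosen for a wide spread between libraries, so the gap between the shares carries no test. In WT the 17 became 10 without WT replicate 3 at 3 months, and 3 where each CpG kept its own variance. Over all CpGs, 18272 of 440965 and 20978 of 442157 had such a p in these fits. The 17 sites stood in 13 blocks and the 20 in 15, so they are fewer than that many separate observations. The 2 age comparisons share no library.

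The smallest p for age in WT belonged to chr19:15433545, which lies in no gene. The WT libraries were at 57.0, 58.5, 47.2 and 46.9% at 13 months and at 94.0, 90.7, 96.7 and 98.9% at 3 months, without overlap. The difference was −42.7 points (log2 difference −4.12, SE 0.55, limma adjusted p = 0.063). HEM libraries at 3 months were at 100, 93.04, 93.1 and 95.3%, and at 13 months they ran from 3.96 to 94.9% (median 50.6%), so the HEM ages overlapped. Its 3 neighbours, 29 bp before and 7 and 9 bp after, had ranges of 17.9, 7.24 and 8.81 points. On the percent scale and with a larger offset the site passed the threshold, with limma adjusted p-values of 0.0131 and 0.0045. In other settings no site passed it. The smallest limma adjusted p at any site was 0.715 with each CpG's own variance and 0.118 without the mean filter. With 1 library left out it was 0.0572 to 0.265. Next in WT was chr2:36121865 in Rbm18, an RNA-binding protein, with 67.0 ± 31.9% at 13 months and 98.6 ± 2.85% at 3 months (SD, n = 4 each; limma adjusted p = 0.975).

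In HEM mice the smallest p for age belonged to chr2:28257280, which lies in no gene. HEM libraries were at 0, 0, 0 and 55.2% at 3 months, and at 13 months they ran from 49.3 to 96.0% (median 87.9%). The means were 77.8 ± 19.3% (SD, n = 8) and 13.8 ± 27.6% (SD, n = 4), 64.0 points apart (log2 difference 7.13, SE 1.21, limma adjusted p = 0.0638). Without HEM replicate 7 at 3 months, the one library there that was not at 0, the limma adjusted p was 0.000678. Without HEM replicate 1 or 2 at 3 months, the smallest limma adjusted p at any site was 0.22 or 0.24. It was 0.296 with each CpG's own variance and 0.559 with the replicate block. WT libraries were at 46.6, 44.8, 48.1 and 92.05% at 13 months and at 0, 58.4, 40.4 and 40% at 3 months, with overlap. Its neighbours 12 bp before and 2 and 23 bp after had ranges of 13.2, 19.4 and 18.7 points.

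Next in HEM was chr16:43973665 in Zdhhc23, a palmitoyltransferase, where HEM libraries at 3 months were at 99.4, 86.3, 95.95 and 93.2% and those of 13 months ran from 0.513 to 90.5% (median 37.1%). The means were 34.5 ± 31.4% (SD, n = 8) and 93.7 ± 5.58% (SD, n = 4), with a limma adjusted p of 0.259. WT libraries were at 93.4, 0, 50 and 54.4% at 13 months and at 88.6, 92.4, 98.3 and 93.6% at 3 months. In both genotypes the 13-month libraries reached into the range of those of 3 months. Without HEM replicate 3 at 3 months, limma called 1 other site for age, chr14:16241971 in Oxsm (adjusted p = 0.0366). At that site the HEM libraries 1, 2, 3 and 7 of 3 months were at 0, 0, 56.95 and 0%, and those of 13 months ran from 5.73 to 93.03% (median 58.8%).

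For the interaction, the HEM minus WT difference at 13 months less that at 3 months, limma called 0 of 76 sites, and 5 (6.6%) had an unadjusted p under 0.05. Over all CpGs, 0.000224% were called at an adjusted p under 0.05 and 6.28% had such an unadjusted p. The 5 became 10 without WT replicate 7 or 9 without HEM replicate 6 at 13 months. They became 2 or 3 without WT replicate 3 or 4 at 3 months, and 0 where each CpG kept its own variance. Over all CpGs such p-values ran from 25321 of 446331 to 30841 of 446827 in these fits. The smallest p belonged to chr6:146554172 in Ints13, an Integrator subunit, with means of 56.8 ± 19.55% in HEM (SD, n = 8) and 35.7 ± 24.0% in WT (n = 4) at 13 months. At 3 months the means were 46.6 ± 53.8% in HEM and 74.4 ± 28.0% in WT (SD, n = 4 each), and the interaction was 49.0 points (limma adjusted p = 0.787). HEM libraries there were at 0, 0, 95.5 and 90.7% at 3 months, and WT libraries at 100, 97.1, 47.1 and 53.4%. At 13 months HEM libraries ran from 42.3 to 89.5% (median 47.4%) and WT libraries were at 51.8, 0, 45.6 and 45.2%. The next was chr11:69400960 in Kdm6b, a histone H3 demethylase, at 61.5 points (limma adjusted p = 0.787). The genotypes overlapped at both ages at the Ints13 site.

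The 12 sites of chromosome 17 lay on a single chromosome, within 29150052 bp, whereas the 76 were spread over 16. All 66 pairs of its 12 sites matched in at least 18 libraries (median 20), and a chromosome 17 site matched one of the 76 in a median of 9 and at most 15 libraries. Among the 76, pairs on different chromosomes matched in a median of 8 libraries. Pairs on one chromosome matched in a median of 20 up to 1 Mb, 18 at 1 to 10 Mb and 11 beyond. These values are descriptive, since the same limits chose both sets. Distances differ between the sets, and a difference in sharing was not tested.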

How the data were processed

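DNA methylation was measured in 20 libraries. The authors deposited 1 percent methylation value per CpG and library, on mm10 coordinates, made with Bowtie2 and methylKit per the submitters' processing notes. Versions, coverage filters and read counts are not given in the sources used here, so no interval for depth could be set. Tables of the whole series were not used, since their columns carry no sample names. The sites and gene lists were chosen with earlier results of these data known.

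Levels, neighbours, matching and blocks were computed in Python 3.11.15 with numpy 2.4.6 and pandas 2.3.3. Consecutive sites joined a block where at least 18 of 20 libraries matched. Genes came from the RefSeq table of the same assembly. limma 3.58.1 in R 4.3.3 was fitted on log2((percent + 1) / (100 - percent + 1)) over all CpGs. The fit was also run on simulated data, drawn from a normal distribution around each CpG's mean. Those data did not imitate 3-level sites, so that run does not bear on the p-values at such sites. Fits for genotype used the libraries of 1 age and fits for age those of 1 genotype, while all 20 entered the interaction.

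Named sites were the clearest site of each of the 8 blocks with most sites, the 2 of smallest p where none was called, the 4 with the most and the 4 with the least similar neighbours, and 3 on either side of the limits. Other sites were named for their gene's role, or for all-high or extreme counts, after their values were seen. Alternatives covered the limits, the matching rule, the scale, the offset, the filter, the variance model, adjacent cytosines, a block for replicate number and leaving out each library.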

Additional observations from a re-analysis of the deposited data

Results flagged for a closer look

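In 52 sets of values, each over a group of 4 or 8 libraries, 5 values stood far from the other libraries of their group, where chance flags about 1 in 20 such sets. The sets share libraries, so the flags are not independent, and an excess over chance was not tested. The median of the low sites was 3.28% in WT replicate 1 at 13 months, and 0 in the other 3 libraries of that group. The median of the middle sites was 51.7% in WT replicate 7 at 13 months. The mean over neuronal marker regions was 27.3% in WT replicate 1 at 13 months and 31.8% in WT replicate 4 at 3 months. The mean over regions of oligodendrocyte lineage markers was 24.8% in WT replicate 1 at 13 months.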

How the results depend on the processing

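The limits set the number of sites: 5 with stricter limits (0 to 5, 40 to 60 and 90 to 100%), 317 with wider ones and 129 with 1 low and 1 high library enough, against 76. Leaving out 1 library gave 73 to 97 sites and 46 to 48 blocks. Other joining rules left 40 to 62 blocks, and the medians for neighbours and for matching moved by less than their spread. Calls for age depended on the scale: with the percent scale or an offset of 5, limma called 1 site in WT, chr19:15433545, and with an offset of 5 it called 1 in HEM, chr2:28257280. Leaving out 1 library gave 0 to 1 calls for age in HEM, with 1 without HEM replicate 3 or 7 at 3 months. It gave 0 for age in WT, for genotype at either age and for the interaction. Over the alternatives the smallest limma adjusted p at any site ran from 0.0045 to 0.715 for age in WT, 0.000678 to 0.559 for age in HEM, 0.484 to 0.955 for genotype at 13 months, 0.0677 to 0.9999 at 3 months and 0.584 to 1.0 for the interaction. Whether replicate numbers pair the libraries stayed unsettled. Correlations of same-numbered libraries were 0.0118 to 0.102 between genotypes at 13 months and −0.0519 and 0.0276 at 3 months. Between ages in HEM they were −0.0889 to 0.0111. At 13 months each of the 3 libraries of a shared number correlated best with its own number. So did replicate 1 between ages in HEM, but not replicates 3 and 7 there. Replicates 1 and 3 at 3 months and replicate 1 between ages in WT did not. With the replicate block limma called 0 sites for genotype at 13 months, 0 at 3 months, 0 for age in HEM and 0 for the interaction. At an unadjusted p under 0.05 were 16, 13, 24 and 3 sites. Over all CpGs there were 26499 of 453891, 21694 of 492283, 23431 of 445659 and 20066 of 446428. Replicate number was a fixed factor there, so a library with an unshared number did not inform the comparison. The shared numbers were 1, 6 and 7 for genotype at 13 months, 1 and 3 at 3 months, and 1, 3 and 7 for age in HEM. With each CpG's own variance and without the block, 1 site had such a p for genotype at 13 months and 0 at 3 months. The counts were 3 and 14 for age in WT and HEM, and 0 for the interaction. Over all CpGs, in the same order, they were 25622 of 453891, 22055 of 492283, 20978 of 442157, 44305 of 445659 and 27493 of 446428. On the percent scale and without the mean filter the site counts were 3 and 3 for genotype at 13 months, 0 and 1 at 3 months, and 2 and 3 for the interaction. Over all CpGs they were 24578 of 453891 and 54572 of 1014296 for genotype at 13 months. At 3 months they were 23201 of 492283 and 42100 of 993463, and for the interaction 27245 of 446428 and 54269 of 1051954. With an offset of 5 the count of sites for genotype at 3 months was 2, against 23449 of 492283 over all CpGs. For age in WT, where only 1 number is shared, the block could not be fitted. Without read counts, what depth limits is unknown.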

Other observations

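CpGs listed at one age only were scored by the same limits over that age's libraries. At 3 months 5 of 95280 such CpGs met them. The CpGs chr11:51801639 and chr11:55218975 had the level of their nearest site of both ages in 8 of 8 libraries, at 145743 and 2566408 bp. The CpG chr1:166099194 matched in 7 of 8 at 989292 bp, and chr11:85111301 in 6 of 8 at 1658741 bp. The CpG chr13:20509075 matched in 3 of 8 at 55575896 bp. At 13 months 1 of 16936 such CpGs met the limits, chr3:79055021, which matched its nearest site in 9 of 12 libraries at 41347701 bp.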
